A study of Ovis aries with 16 samples.

Results

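The 8 snoRNAs described here lie inside genes for translation or nucleolar proteins and were followed through liver and muscle of female sheep. They make up 8 of the 694 snoRNAs in the deposited table. By the positions of ARS-UI_Ramb_v3.0, the RefSeq sheep assembly, their hosts are the translation genes EIF4G1, EEF1B2, RACK1 and TPT1, the ribosomal protein genes RPL4 and RPL27A, and the nucleolar protein genes NCL and DKC1. The 8 were selected on measured values: some by their abundance in the control tissues (those in EIF4G1, RACK1 and DKC1), some by a small p-value of prenatal T against control (those in RPL27A and TPT1 in liver and in EEF1B2 in muscle), and with the control liver against muscle contrast in view. Values of those contrasts are therefore given as a description.

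The study sequenced small RNA from 8 ewes, 4 controls (ewes 98, 131, 132 and 201) and 4 exposed to testosterone before birth, called prenatal T (ewes 48, 185, 233 and 255). Each ewe gave a liver and a muscle library, 16 in all. The labels used here give neither a breed, an age, a dose nor a time of exposure, and no genetic change. Recovered snoRNA reads ran from 5278 to 13951 per liver library and from 2180 to 5766 per muscle library. Of the fixed marker miRNAs, 1 of 4 for muscle was in the data, MIR133, and it held 37.2% to 56.4% of miRNA reads in muscle against 0.029% to 0.227% in liver. The liver miRNAs MIR194 and MIR148A, 2 of 4 on their list, together held 9.97% to 14.6% in liver and 0.186% to 0.351% in muscle, so the libraries carried the markers of their labelled tissues. Of the other lists, the blood miRNAs (2 of 5 in the data) held 0.388% to 0.744% in liver and 0.406% to 1.01% in muscle, the epithelial ones (3 of 5) 0.408% to 1.07% and 0.0009% to 0.0036%, and the stromal and vascular ones (3 of 5) 8.46% to 14.0% and 1.82% to 3.73%. The muscle of ewe 255 had the lowest MIR133 share among muscles, 37.2% against 50.0% to 56.4% in the others. It also had the highest blood miRNA share among them, 1.01% against 0.406% to 0.668%. The part of such cells in the tissue differences was not tested.

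The submitters' library numbers fall into 2 separate runs, a low one (set 1, 9 libraries) and a high one (set 2, 7 libraries). Set 1 holds the livers of ewes 98 and 48 and 7 muscles. Set 2 holds the other 6 livers and the muscle of ewe 255. Tissue and library set therefore nearly coincide, and only ewes 98, 48 and 255 have both tissues in 1 set. What these numbers stand for is not stated in the labels. The share of snoRNA reads among the reads of the 4 RNA classes was 0.234% to 0.386% in the muscles of set 1 and 1.42% in the muscle of ewe 255, and 0.830% to 2.89% in liver. The muscle of ewe 255 had 239871 reads over the 4 classes, against 817350 to 1819374 in the muscles of set 1.

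Small nucleolar RNAs are short non-coding RNAs that are mostly cut out of the introns of other genes and guide chemical changes on ribosomal RNA. Box C/D snoRNAs guide methylation of the ribose and are usually the shorter kind, and box H/ACA snoRNAs guide the change of uridine to pseudouridine and are usually longer. Many sit in genes of the translation machinery, so a single transcript can give both a messenger RNA and snoRNAs. Because the snoRNA is stabilised by its own proteins after splicing, its level need not follow that of its host. The files do not name the class of these snoRNAs, so they are described by length: 68 bases in RACK1, 70 in NCL, 71 in RPL4, 76 in EIF4G1 and 79 in EEF1B2, against 130 in RPL27A, 130 in TPT1 and 134 in DKC1. Levels are given as scaled reads, which are reads divided by a size factor that puts all 16 libraries on a common scale of snoRNAs.

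The levels of the 8 differed widely. Per 100 bases, the snoRNA in EIF4G1 was the most abundant in both tissues by its mean, with 378 ± 45.6 scaled reads in liver and 396 ± 56.5 in muscle (SD, n = 8). In liver the snoRNAs in RACK1 (321 ± 92.0), NCL (277 ± 167) and RPL4 (220 ± 135) came next and overlapped in their spread. Those in RPL27A (5.01 ± 2.72), TPT1 (3.14 ± 1.23) and DKC1 (2.99 ± 1.16) were the lowest there, with overlapping ranges. In muscle the order after EIF4G1 was RACK1 (171 ± 109), DKC1 (85.6 ± 34.2), NCL (61.4 ± 126), RPL4 (55.9 ± 104) and EEF1B2 (43.8, range 29.7 to 56.8), of which NCL and RPL4 had an SD above their mean. Without the muscle of ewe 255 the means were 17.1 in NCL and 19.2 in RPL4, below that in EEF1B2 (41.9). The snoRNA in DKC1 thus stood last by mean in liver and behind EIF4G1 and RACK1 in muscle. Together the 8 held 9.63% to 16.7% of snoRNA reads in liver and 11.9% to 16.7% in muscle, so their sum was alike while its makeup was not.

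**Figure D1:**
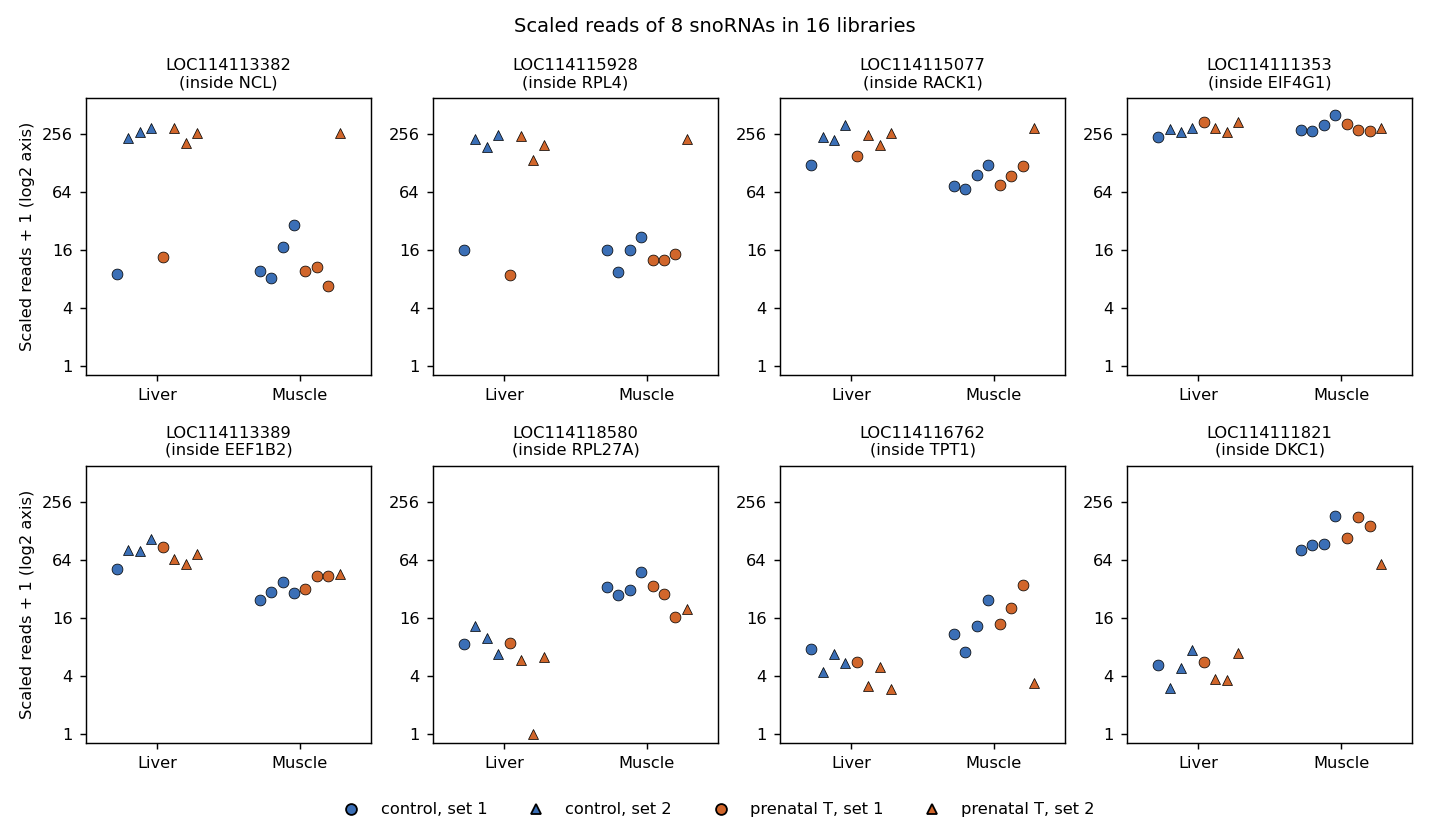
Scaled reads + 1 (log2 axis) of the 8 snoRNAs in liver and muscle. Each point is 1 library, with colour for treatment and circles for library set 1, triangles for set 2. The snoRNAs in NCL and RPL4 separate circles from triangles in both tissues. Those in DKC1, RPL27A and EEF1B2 separate liver from muscle, with the widest gap in DKC1.

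The snoRNA in NCL, LOC114113382, followed the library set and not the tissue. NCL encodes nucleolin, an abundant nucleolar protein that takes part in ribosomal RNA transcription and processing. In control livers it had 8.0 scaled reads in ewe 98, 228 in ewe 131, 263 in ewe 132 and 289 in ewe 201. In prenatal T livers it had 12.4 in ewe 48, 292 in ewe 185, 202 in ewe 233 and 256 in ewe 255. The low pair, ewes 98 and 48, are the livers of set 1. Muscle had 8.65, 7.20, 16.3 and 27.9 scaled reads in control ewes 98, 131, 132 and 201, and 8.59, 9.61, 5.71 and 260 in prenatal T ewes 48, 185, 233 and 255. The muscle of ewe 255, the single muscle of set 2, was at the level of the set 2 livers. Set 2 livers had a mean 25.0 times that of set 1 livers, and the set 2 muscle was 21.7 times the mean of the set 1 muscles. As a share of its snoRNA reads this was 3.24% in the muscle of ewe 255 (95% Wilson interval 2.69% to 3.89%) against 0.129% (0.044% to 0.378%) in the muscle of ewe 233, intervals that cover counting error only.

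The snoRNA in RPL4, LOC114115928, had the same split. RPL4 is a protein of the large ribosomal subunit. Livers of set 1 had 15.0 (ewe 98) and 7.82 (ewe 48) scaled reads, and livers of set 2 had 135 to 247. Muscles of set 1 had 8.40 to 20.9, and the muscle of ewe 255 had 222. No library of one set reached the range of the other. Set 2 exceeded set 1 by 17.9 times in liver and by 16.3 times in muscle, on means.

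The snoRNA in RACK1, LOC114115077, moved with the set by less. RACK1 encodes a scaffold protein bound to the small ribosomal subunit. Set 1 livers had 119 and 150 scaled reads and set 2 livers 196 to 315. Set 1 muscles had 67.2 to 121 and the set 2 muscle 293. The ranges of the sets did not overlap within either tissue, and within set 1 the liver of ewe 98 (119) lay just under the highest muscle (121, ewe 201).

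A fit over all 16 libraries with terms for tissue, treatment and set, added after these values had been seen, gave set 2 minus set 1. In control ewes tissue and set nearly coincide, and that tissue contrast was in view when the members were chosen. The members' differences, p-values, counts and ranks in this fit are therefore given as a description. On the log2 scale the difference was 4.57 ± 0.30 (SE; 95% interval 3.96 to 5.19) for the snoRNA in NCL, 4.11 ± 0.24 (3.61 to 4.6) for that in RPL4 and 1.15 ± 0.21 (0.73 to 1.58) for that in RACK1. Benjamini-Hochberg adjusted p-values of limma were 4.36e-12, 6.59e-13 and 5.59e-05. With these, 3 of the 8 passed the threshold of 0.05 as higher in set 2, and 1, the snoRNA in TPT1, as lower (-1.16 ± 0.45, adjusted p = 0.0375). In the 8 livers alone the first 3 differences were 4.53, 4.08 and 0.86. Over all 144 snoRNAs tested, 30.6% were higher and 16.7% lower in set 2. The snoRNAs in NCL and RPL4 ranked 2 and 5 of 144 for a higher level in set 2. The other 4 did not pass: the differences were 0.00 ± 0.15 in EIF4G1 (95% interval -0.31 to 0.31), 0.26 ± 0.23 in EEF1B2, -0.45 ± 0.45 in RPL27A and -0.54 ± 0.32 in DKC1, with adjusted p-values of 0.995, 0.383, 0.444 and 0.162. When reads were scaled to the total snoRNA reads, which moves the median of all snoRNAs to -0.69, those in DKC1 (-1.16) and RPL27A (-1.06) also passed as lower in set 2, and that in EIF4G1 (-0.71) did so too. On that scale 70 snoRNAs in all were lower and 34 higher in set 2, so nothing is read from these further calls.

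The set difference went with length. A length from RefSeq was found for 137 of the 144 snoRNAs, and the length classes were chosen after the values had been seen. Of 46 snoRNAs under 75 bases, 29 were higher and 2 lower in set 2, with a median log2 difference of 1.28. Of 47 with 75 to 99 bases, 14 were higher and 6 lower (median 0.03), and of 44 with 100 or more bases none was higher and 12 were lower (median -0.68). The members in RACK1, NCL and RPL4 are in the shortest class, and the members in RPL27A, TPT1 and DKC1 in the longest. The part of length in the set difference was not tested.

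**Figure D2:**
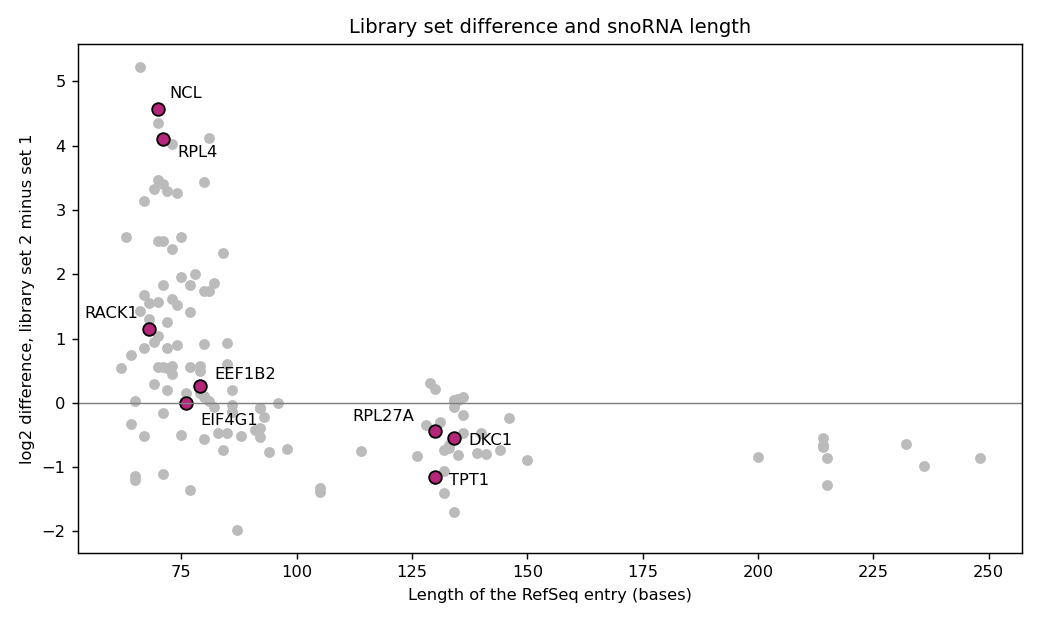
Log2 difference of library set 2 minus set 1 (vertical) against the length of the RefSeq entry in bases (horizontal) for 137 snoRNAs, each a point, with the 8 members in magenta and named by host. The members in NCL (4.57) and RPL4 (4.11) are near the top among short snoRNAs, and the 3 long members lie below 0.

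The better covered second snoRNAs of NCL and RPL4 were not higher in set 2. NCL also holds LOC114113388 (80 bases), whose set difference was -0.56 ± 0.51 (limma adjusted p = 0.398). Reads of LOC114113382 per read of LOC114113388 were 0.413 to 3 in the set 1 libraries where the ratio could be formed and 11.1 to 110 in set 2. RPL4 also holds LOC114115930 (98 bases), which was lower in set 2 (-0.73 ± 0.27, adjusted p = 0.0315). Reads of LOC114115928 per read of LOC114115930 were 0.292 to 0.900 in set 1 and 6.93 to 27.9 in set 2, with no overlap. A ratio of 2 snoRNAs within a library does not depend on how libraries are scaled. In muscle the NCL ratio rests on few reads of LOC114113388, 0 to 7 in set 1 and 1 in ewe 255. The cause of the unequal change within a host was not tested. In RACK1 the second snoRNA, LOC114115069, had 152 reads in all and a set difference of 0.49 ± 0.42 (adjusted p = 0.360). Reads of LOC114115077 per read of LOC114115069 were 9.6 to 52 in set 1 and 17.6 to 62 in set 2, so the sets overlapped. Further snoRNAs of NCL (LOC114113369, 29 reads in all) and RPL4 (LOC114115926 with 26 and LOC114115927 with 25) were too low to be tested.

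The tissue contrast was fitted in the 4 prenatal T ewes. It is a test for the snoRNAs in EIF4G1, RACK1, NCL and RPL4, but it does not separate tissue from library set. Of these ewes only 48 and 255 have both tissues in 1 set. The prenatal T livers entered the choice of those in RPL27A and TPT1, and the prenatal T muscles that of the one in EEF1B2. The snoRNA in DKC1 reached the filter, a mean of at least 5, through muscle, with 2.6 to 5.86 scaled reads in prenatal T livers. The values of these 3 and of the one in DKC1 are therefore a description. Past the threshold were the snoRNAs in DKC1 and RPL27A, 2 of the 8, both lower in liver, and 0 were higher. Over the 144 snoRNAs tested, 6.25% were lower and 7.64% higher in liver. Nothing is read from the count, since it includes members chosen with these libraries. The median difference was 0.41 over the members and 0.25 over all snoRNAs tested. Length classes differed in this contrast too. Of 42 snoRNAs with 100 or more bases, 0 were higher and 8 lower in liver (median -0.34). Of 49 with 75 to 99 bases, 4 were higher and 0 lower (median 0.32). Of 46 under 75 bases, 7 were higher and 1 lower (median 1.39). The part of length in the tissue differences was not tested. In control ewes, where the contrast was used in the choice, 4 of the 8 were higher in liver (background 21.0% of 157) and 2 lower (background 11.5%), which is given as a description.

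The snoRNA in DKC1, LOC114111821, was the one with the largest muscle excess. DKC1 encodes dyskerin, the enzyme of box H/ACA particles that makes pseudouridine. Control livers had 4.23, 2.03, 3.79 and 6.34 scaled reads in ewes 98, 131, 132 and 201, and control muscles 79.1, 88.8, 91.1 and 181. Prenatal T livers had 4.56, 2.67, 2.6 and 5.86 in ewes 48, 185, 233 and 255, and prenatal T muscles 105, 175, 141 and 56.7. The tissues did not overlap, and the lowest muscle, that of ewe 255, was above the highest liver. In reads this was 2 to 10 per liver library and 24 to 147 per muscle library, so liver levels were the less precise. In the prenatal T ewes muscle was 30.4 times liver on means, and muscle was higher in 4 of 4 ewes. The log2 difference of liver minus muscle was -4.55 ± 0.44 (SE; 95% interval -5.53 to -3.57). It ran from -5.16 to -2.98 over 11 alternatives, and the snoRNA ranked 1 of 144 for higher muscle. The snoRNA passed the filter through muscle, so these values are given as a description. In whole tissue, fewer cells that make a snoRNA and less of it per cell cannot be told apart.

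The same snoRNA kept its direction within each library set. In set 1 the difference was -4.48 ± 0.31 over 9 libraries, and in ewe 255, with both tissues in set 2, it was -3.07 on the log2 scale. Its per-ewe differences ran from -5.58 to -3.07 over all 8 ewes. Reads of this snoRNA per read of the snoRNA in EIF4G1 were 0.00716 to 0.0217 in liver and 0.195 to 0.628 in muscle, a ratio free of scaling. DKC1 also holds LOC114111824, which had no reads in any of the 16 libraries.

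The snoRNA in RPL27A, LOC114118580, also had fewer scaled reads in liver in each ewe. RPL27A is another large-subunit protein. Prenatal T livers had 7.82, 4.81, 0 and 5.21 scaled reads in ewes 48, 185, 233 and 255, and prenatal T muscles 32.9, 26.9, 15.2 and 18.9. The tissues did not overlap, and the liver of ewe 233 had 0 of 5278 snoRNA reads, which allows a share of up to 0.0568%. The difference was -2.48 ± 0.66 (SE; 95% interval -3.98 to -0.98), given as a description. It was no longer past the threshold without ewe 48, ewe 185 or ewe 233. In control ewes livers had 5.71 to 12.2 and muscles 26.4 to 46.5, and per-ewe differences ran from -4.02 to -1.06 over the 8 ewes, with muscle higher in 8 of 8.

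The snoRNA in TPT1, LOC114116762, cannot be separated in these counts from LOC114114235, which has 130 bases and lies in no host. TPT1 encodes a small, abundant tumour protein under translational control. The 2 snoRNAs had 131 and 130 reads in all, and equal reads in 15 of 16 libraries, so the level may belong to either locus or to both. Livers had 1.95 to 6.58 scaled reads. Muscles of set 1 had 6 to 34.3 and the muscle of ewe 255 had 2.36, from 1 read. In the prenatal T ewes the difference was -1.76 ± 0.68 (95% interval -3.29 to -0.23), and it was -2.28 without ewe 255, -2.73 with edgeR and -2.71 with DESeq2, all given as a description.

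The snoRNA in EEF1B2, LOC114113389, had more scaled reads in liver in 8 of 8 ewes. EEF1B2 encodes a subunit of the exchange factor that reloads elongation factor 1A with GTP. Prenatal T livers had 85.3, 63.7, 57.2 and 72.9 scaled reads in ewes 48, 185, 233 and 255, and muscles 30.8, 42.3, 41.9 and 44.9. Control livers had 49.8, 79.0, 77.0 and 104 in ewes 98, 131, 132 and 201, and muscles 23.5, 28.8, 36.7 and 27.9. The tissues did not overlap in either group of ewes. In the prenatal T ewes the difference was 0.79 ± 0.28 (95% interval 0.15 to 1.43), given as a description. The 3 ewes with both tissues in 1 set had differences of 0.69 to 1.44.

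A second snoRNA of EEF1B2, LOC114113393 (134 bases), went the other way. It had 22.5 to 27.3 scaled reads in prenatal T livers and 45.1 to 65.3 in prenatal T muscles, with a difference of -1.10 ± 0.29 (limma adjusted p = 0.0350), and was higher in muscle in 8 of 8 ewes. Reads of LOC114113389 per read of LOC114113393 were 2.10 to 4.88 in liver and 0.364 to 0.95 in muscle. The ratio stood on either side of 1 by tissue, also in the livers of set 1 (2.47 and 3.2) and in the muscle of set 2 (0.95). This pair was singled out after its values had been seen, so the ratio has no test. The 2 also differ in length, and LOC114113389 has 79 bases. In prenatal T ewes, 0 of 42 snoRNAs with 100 or more bases were higher in liver and 8 lower. Of 49 with 75 to 99 bases, 4 were higher and 0 lower. A ratio of a short to a long snoRNA does not remove such a difference, and the part of length was not tested.

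The snoRNA in EIF4G1, LOC114111353, was close to level. EIF4G1 encodes the scaffold of the cap-binding initiation complex. Livers had 233 to 335 scaled reads with a median of 286, and muscles 269 to 398 with a median of 285, so the tissues overlapped. In prenatal T ewes the difference was 0.08 ± 0.16 (95% interval -0.29 to 0.44, limma adjusted p = 0.783). The sign changed to -0.18 with edgeR, -0.11 with DESeq2 and -0.31 with scaling to total snoRNA reads. With scaling to all 4 RNA classes, where the median of all snoRNAs tested was 1.75, it was 1.78 (limma adjusted p = 0.0144).

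The snoRNAs in NCL and RPL4 had the widest intervals of the 8 in the tissue contrast of prenatal T ewes, and that in RACK1 a narrower one. The log2 differences, liver minus muscle, were 2.54 ± 1.34 (95% interval -0.48 to 5.56) in NCL, 1.71 ± 1.25 (-1.11 to 4.53) in RPL4 and 0.75 ± 0.42 (-0.20 to 1.70) in RACK1. Their limma adjusted p-values were 0.258, 0.404 and 0.3. Without ewe 255 the snoRNAs in NCL (3.39, adjusted p = 0.0481) and RACK1 (1.06, adjusted p = 0.0348) passed; that leaves liver in set 2 and muscle in set 1 for 2 of the 3 ewes. Over 11 alternatives the highest adjusted p was 0.668 in NCL and 0.703 in RACK1. In the 3 ewes with both tissues in 1 set the difference was -0.10 to 0.48 in NCL and -0.50 to 0.02 in RPL4. In the other 5 ewes, with liver in set 2 and muscle in set 1, it was 3.32 to 4.92 and 3.25 to 4.58, and the ranges of these ewes did not overlap.

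**Figure D3:**
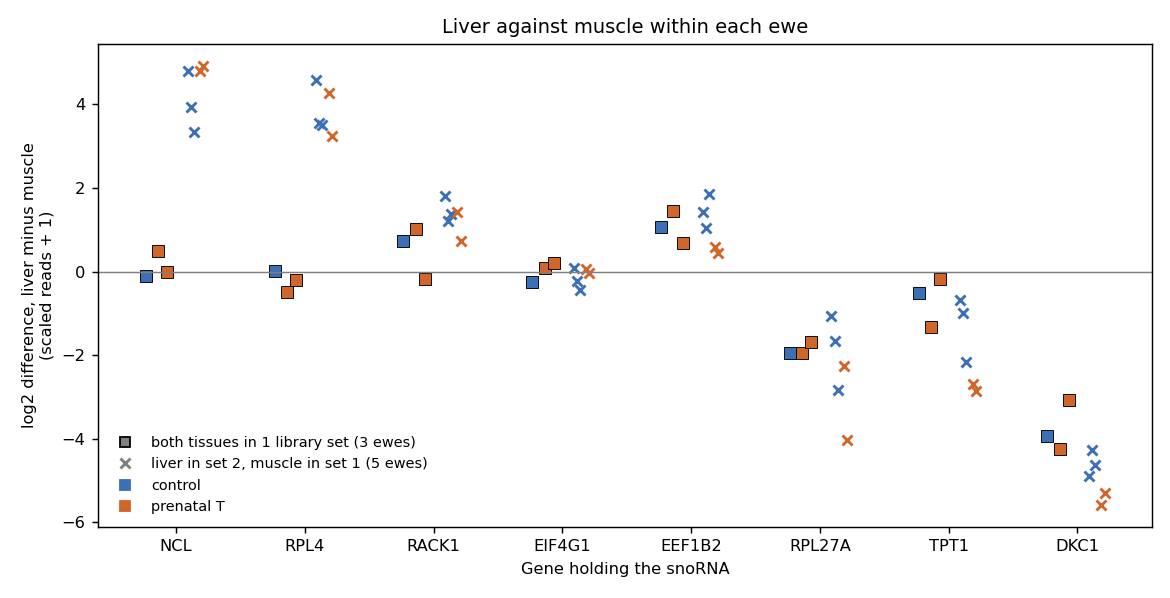
Log2 difference of liver minus muscle in scaled reads + 1 (vertical) for each ewe and each snoRNA, named by host (horizontal). Squares are the 3 ewes with both tissues in 1 library set and crosses the 5 ewes with tissues in different sets. Crosses lie above 3 and squares near 0 for NCL and RPL4, while all points lie below -3 for DKC1.

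Tissue contrasts that account for the library set include control libraries and are given as a description. Within set 1 (2 livers and 7 muscles) 1 of the 8, in EEF1B2, was past the threshold as higher in liver and 3, in DKC1, RPL27A and TPT1, as lower, where 5.37% and 10.1% of all 149 snoRNAs tested were. The differences were 0.95 ± 0.33 in EEF1B2, -1.75 ± 0.38 in RPL27A and -1.32 ± 0.46 in TPT1. With 2 livers each of these rests on few libraries: EEF1B2 was no longer past the threshold without either liver (1.15 and 0.77), RPL27A without the liver of ewe 98 (-1.50) and TPT1 without that of ewe 48 (-0.72). The snoRNAs in NCL (-0.04 ± 0.47), RPL4 (-0.23 ± 0.43), RACK1 (0.57 ± 0.26) and EIF4G1 (-0.11 ± 0.19) were not past it. By length, 0 of 58 snoRNAs with 100 or more bases were higher in liver within set 1 and 12 were lower. Of 46 with 75 to 99 bases, 6 were higher and 2 lower, and of 36 under 75 bases, 2 and 1.

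Over all 16 libraries with a term for set, 1 of the 8 was past the threshold as higher in liver (EEF1B2, 0.91 ± 0.23) and 2 as lower (DKC1, -4.15 ± 0.32, and RPL27A, -1.90 ± 0.44). The shares of all 144 snoRNAs were 16.0% and 14.6%. The difference in NCL went from 2.76 ± 0.88 without the term to -0.09 ± 0.30 with it, that in RPL4 from 2.31 ± 0.78 to -0.26 ± 0.24, and that in RACK1 from 1.01 ± 0.27 to 0.29 ± 0.20. In TPT1 it went from -1.42 ± 0.41 to -0.70 ± 0.45.

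**Figure D4:**
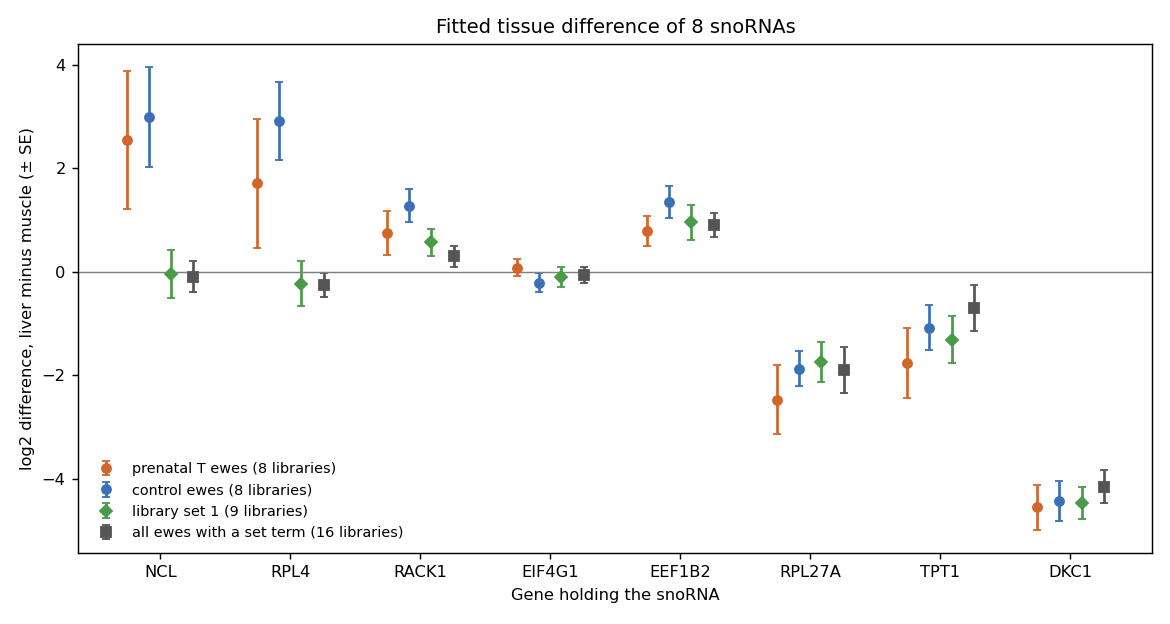
Fitted log2 difference of liver minus muscle (vertical, points with SE bars) of the 8 snoRNAs, named by host (horizontal), in prenatal T ewes, control ewes, library set 1 and all ewes with a term for set. For NCL and RPL4 the first 2 fits lie above 1.5 and the last 2 at or below 0, whereas the 4 fits for DKC1 lie between -4.55 and -4.15.

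All tissue differences so far are relative to the other snoRNAs. When reads were scaled to all 4 RNA classes, an alternative added after the data had been seen, the median of all snoRNAs tested moved from 0.25 to 1.75 in prenatal T ewes, and to 2.31 in control ewes and 2.39 in set 1. On that scale the snoRNA in DKC1 was still lower in liver (-2.98 in prenatal T ewes). That in RPL27A was at -1.13, and in control ewes and in set 1 it was above 0 (0.39 and 0.38), as was that in TPT1 (1.05 and 0.76).

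For prenatal T against control, 0 of the 8 passed in liver (161 snoRNAs tested, 0.0% called), muscle (110 tested, 0.0% called) or the difference of the tissue contrast (144 tested, 0.0% called). In limma no snoRNA tested had an unadjusted p under 0.05 in any of these, and edgeR and DESeq2 called 0 in each tissue. The limma fits for treatment had no term for library set. Both liver groups and the prenatal T muscles hold libraries of both sets, so differences between sets enter the spread used by these fits. The counts therefore cannot show that a treatment effect is absent. In liver the largest difference among the 8 was in RPL27A, where control livers had deposited values of 10.7, 17.5, 13.9 and 8.5 and prenatal T livers 11.1, 6.5, 0 and 7.4, which overlap, with a log2 difference of -1.33 ± 0.72. That in TPT1 was -0.68 ± 0.40. In muscle the snoRNA in EEF1B2 had 15.1, 19.5, 23.9 and 15.5 in control and 22.2, 29.7, 26.9 and 30.7 in prenatal T muscles, which also overlap, with a difference of 0.55 ± 0.25. These 3 had entered the choice by their p-values and have no test here.

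The snoRNAs in NCL and RPL4 had the widest intervals for treatment. In liver the difference in NCL was 0.00 ± 1.33 (95% interval -2.98 to 2.98) and in RPL4 -0.49 ± 1.21 (-3.20 to 2.21), with limma adjusted p-values of 0.999 and 0.982. In muscle they were 0.66 ± 1 and 0.92 ± 0.83 (adjusted p = 0.873 for both), and -0.54 and -0.09 without ewe 255. Against this, the intervals of the snoRNA in EIF4G1 were -0.53 to 0.71 in liver and -0.31 to 0.36 in muscle. The snoRNA in DKC1 differed by -0.12 ± 0.45 in liver and 0.21 ± 0.35 in muscle, and that in RACK1 by -0.11 ± 0.39 and 0.64 ± 0.38. With a ewe left out, the muscle difference in RACK1 ran from 0.23 to 0.86. The muscle of ewe 255 had 293 scaled reads of this snoRNA, against 67.2 to 121 in the muscles of set 1. The difference of the tissue contrast between prenatal T and control ewes ran from -1.21 ± 1.6 (RPL4) to 0.29 ± 0.22 (EIF4G1), with limma adjusted p-values of 0.884 to 0.952 over the 8.

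**Figure D5:**
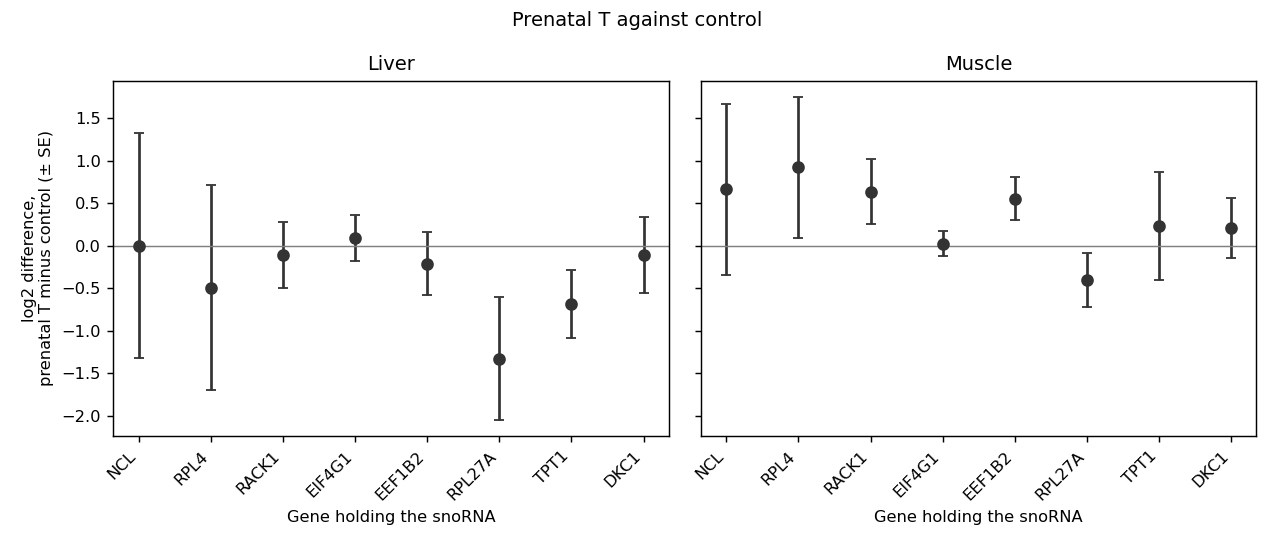
Log2 difference of prenatal T minus control (vertical, points with SE bars) of the 8 snoRNAs, named by host (horizontal), in liver (left) and muscle (right). Bars for NCL and RPL4 are the longest in both tissues (SE 0.83 to 1.33), and none of the 8 passed the adjusted threshold.

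Hosts of the same kind were counted as well. Of the 694 snoRNAs, 53 lie in ribosomal protein genes, 22 in translation genes (factors, with RACK1 and TPT1 on the same list) and 22 in nucleolar protein genes, members included. In prenatal T ewes 2 of 27 tested in ribosomal protein genes were higher and 1 lower in liver (median 0.30). Of 12 in these translation genes none was higher and 3 were lower (median 0.05), and of 11 in nucleolar protein genes none was higher and 1, the member in DKC1, was lower (median 0.91). Over all 144 snoRNAs tested 7.64% were higher and 6.25% lower, with a median of 0.25.

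Likeness was measured as Pearson's r of the deviations from the 4 group means over 16 libraries, each member against 143 others, and the most alike snoRNA was named. The snoRNAs in NCL and RPL4 were each other's nearest (r = 0.98). That in RACK1 was nearest to LOC114117669 in NOP56 (r = 0.90), which also had a higher level in set 2 (1.25 ± 0.28). Those in EIF4G1 (r = 0.78) and RPL27A (r = 0.83) were both nearest to LOC114110702, that in EEF1B2 to LOC114110518 (r = 0.70), that in TPT1 to LOC114114235 (r = 0.999) and that in DKC1 to LOC114113403 (r = 0.70). These libraries share depth and library set, so the values are a description.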

How the data were processed

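Per the labels, RNA was extracted with Trizol and small RNA libraries were made with a NEBNext kit. Tools listed in the submitters' processing notes are featureCounts 1.6.1, STAR 2.6.0c and cutadapt 3.2, without a role or order, and the genome build is not given in the sources used here. What the authors deposited is a signal in which the reads of a library had been divided by its own size factor, set within a tissue. All 4471 snoRNA values above 0 came out as whole reads within 0.001 (100%). Those reads were scaled across the 16 libraries by median-of-ratios over 141 snoRNAs with reads in every library. A RefSeq gene table gave lengths and hosts and matched 621 of 694 snoRNAs.

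Within a tissue, log2(deposited value + 1) and between tissues log2(scaled reads + 1) was fitted with limma 3.58.1 in R 4.3.3 for snoRNAs with a mean of at least 5, with Benjamini-Hochberg adjustment over all of them and a threshold of 0.05; this understates changes of low snoRNAs. edgeR 4.0.16 and DESeq2 1.42.0 were run on the recovered reads as alternatives. The scripts were tested on simulated data. Replicate libraries differed by 1.25 to 27.6 chi-square per degree of freedom, and none was treated as a duplicate. Ewe numbers in the labels pair liver and muscle of 1 animal. Within a ewe the deviations of the tissues from their group means correlated at -0.23 to 0.66 over 144 snoRNAs. The highest were 0.62 (ewe 48) and 0.66 (ewe 255), both with tissues in 1 library set, as has ewe 98 (0.094). Ewes with tissues in different sets ran from -0.23 to 0.22. These values do not separate a shared animal from a shared set. Named were the 8 members, other snoRNAs in their hosts and the most alike snoRNA of each. The members and lists were chosen with earlier results of these data known. No sequences were used here.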

Additional observations from a re-analysis of the deposited data

Results flagged for a closer look

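A single library stood apart from the other 3 of its group in 4 of 48 groups checked (12 snoRNAs in 4 groups each, 8.33%), where chance alone flags about 1 group in 20. In prenatal T muscle, the snoRNA in NCL (LOC114113382) had 260 scaled reads in ewe 255 against 5.71 to 9.61 in the other ewes, and that in RPL4 (LOC114115928) had 222 against 11.5 to 13.3. This library is the muscle of library set 2. In control muscle, the snoRNA in DKC1 (LOC114111821) had 181 in ewe 201 against 79.1 to 91.1. In prenatal T muscle, a second snoRNA in NCL (LOC114113388) had 13.3 in ewe 233, from 7 reads, against 2.36 to 3.84.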

How the results depend on the processing

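Under the replicate block, with each ewe's liver and muscle paired, 16 snoRNAs passed in prenatal T ewes and 50 in control ewes, against 20 and 51 without it, and no member's call changed. In prenatal T ewes the count was 37 with DESeq2, 87 (85 higher in liver) with scaling to the 4 classes and 4 to 29 when a ewe was left out (5 without ewe 185, 4 without ewe 233). Scaling to total snoRNA reads gave 6 higher and 9 lower there, against 11 and 9, and edgeR 8 and 11. In control ewes it was 141 with the 4 classes, against 51, and 6 to 79 with a ewe left out (79 without ewe 98, 17 without 131, 16 without 132, 6 without 201); total scaling gave 25 higher and 37 lower against 33 and 18. In set 1 the 4 classes gave 124 against 23. Between sets, total scaling gave 104 (34 higher, 70 lower) against 68 (44 and 24).

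Log2 differences that changed sign follow. With the 4 classes, control ewes had 2.19 in EIF4G1, 0.39 in RPL27A and 1.05 in TPT1, and set 1 had 2.16 in EIF4G1, 1.99 in NCL, 1.87 in RPL4, 0.38 in RPL27A and 0.76 in TPT1. In prenatal T ewes EIF4G1 was -0.18 with edgeR, -0.11 with DESeq2 and -0.31 with total scaling. With a term for set over all ewes, NCL was -0.094 and RPL4 -0.26. Between sets, EIF4G1 was 0.040 in livers alone and EEF1B2 -0.44 with total scaling. For prenatal T in liver, NCL was -0.028 with a pseudocount of 5, -0.15 with edgeR, -0.16 with DESeq2 and -0.19 in set 2, where EIF4G1 was -0.051. In muscle, EIF4G1 was -0.023 with edgeR and -0.26 with total scaling, DKC1 -0.071 with total scaling, and NCL -0.54 and RPL4 -0.089 in set 1.

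Leaving out a ewe, prenatal T effects in liver ran from -0.40 to 0.087 in RACK1, -1.24 to 1.05 in NCL, -1.46 to 0.61 in RPL4 and -0.37 to 0.098 in DKC1. In muscle they ran from -0.045 to 0.088 in EIF4G1, -0.54 to 1.21 in NCL, -0.089 to 1.27 in RPL4, -0.18 to 0.87 in TPT1 and -0.024 to 0.52 in DKC1. The tissue difference in set 1 ran from -0.41 to 0.22 in EIF4G1, -0.65 to 0.60 in NCL and -0.57 to 0.087 in RPL4, and the difference of the tissue contrast from -1.48 to 0.40 in NCL and -0.61 to 0.22 in DKC1. The cause of these changes was not tested. Muscle libraries with few reads limit the precision: reads per muscle library ran from 1 to 18 in TPT1, 8 to 46 in RPL27A, 3 to 110 in NCL and 6 to 94 in RPL4.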
